A study of Mus musculus with 12 samples.

Results

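The genes examined here were 10 genes of the MHC class I antigen presentation pathway and the immunoproteasome, taken by symbol from the 55885 genes of the TPM matrix: the heavy chain genes H2-K1, H2-D1 and H2-T24, the light chain gene B2m, the peptide transport and loading genes Tap1, Tap2 and Tapbp, and the immunoproteasome genes Psmb8, Psmb9 and Psmb10. All 10 were listed and all 10 passed the filter on low values (3 or more hearts with TPM of 1 or higher) that left 13815 genes for testing. RNA of cardiac tissue was sequenced from 12 male mice of 8 weeks of age, 3 in each of 4 groups, which the study set up to ask how STING, the adaptor of cytosolic DNA sensing, takes part in the cardiac toxicity of cisplatin. The Saline group was wild-type C57BL/6 in the labels (C57BL/6J in the study's methods) without cisplatin, called untreated in the labels and described as saline-injected in the study's methods. The CDDP group was of the same wild-type strain and was given cisplatin, a DNA-crosslinking chemotherapeutic, at 6 mg/kg on days 1, 8 and 15. The STING-/- group carried the Tmem173-/- genotype on that background without cisplatin, and the STING-/-+CDDP group carried it with the same cisplatin course. Hearts were collected on day 22. STING-/- is a germline knockout, so STING was lost in every cell type of the mouse. Wild-type and STING-/- mice came from different suppliers, so genotype and supplier cannot be told apart.

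MHC class I molecules display peptides from proteins made inside the cell to CD8 T cells and are carried by nearly all nucleated cells. A heavy chain pairs with beta-2-microglobulin, and the peptide is cut by the proteasome, pumped into the endoplasmic reticulum by the TAP transporter and loaded with the help of tapasin. Interferons raise the whole set together through factors such as IRF1 and the class I transactivator NLRC5, and they exchange the catalytic subunits of the proteasome for the inducible ones encoded by Psmb8, Psmb9 and Psmb10. In the resting heart the cardiomyocytes carry little class I, and endothelial cells, macrophages and other non-muscle cells carry more.

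Apart from B2m and Psmb10, the genes lie on chromosome 17 (GRCm38): H2-K1 from 33996017 to 34000347, H2-D1 from 35262730 to 35267499, H2-T24 from 36005695 to 36020560, Tapbp from 33915899 to 33929292, Psmb9 from 34181987 to 34187764, Tap1 from 34187553 to 34197225, Psmb8 from 34197721 to 34201454 and Tap2 from 34203527 to 34216321. B2m lies on chromosome 2 from 122147686 to 122153083, and Psmb10 on chromosome 8 from 105935735 to 105938444. Tap1 and Psmb9 are transcribed in opposite directions, and their RefSeq starts are 225 bases apart, so both are read from a shared stretch of promoter. Their gene models overlap at these ends, where reads could not be told apart if strand was not used in counting, which the sources used here do not state.

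Promoter sequence was available from RefSeq (GRCm38.p6) for 8 of the 10 genes. The stretches before the starts of H2-K1, on the minus strand at chr17:34000348-34000597, and of B2m, on the plus strand at chr2:122147437-122147685, are shown because they hold the elements through which class I genes are known to respond to NF-kB, interferon and NLRC5. Capitals mark matches on either strand to 4 kinds of element: GGG and CCC with 5 bases between them (NF-kB), GAAA or GAA followed by GAAA with 2 bases between them (interferon-stimulated response element), TGACG (the core of the X2 box) and ATTGG (the Y box, an inverted CCAAT).
H2-K1: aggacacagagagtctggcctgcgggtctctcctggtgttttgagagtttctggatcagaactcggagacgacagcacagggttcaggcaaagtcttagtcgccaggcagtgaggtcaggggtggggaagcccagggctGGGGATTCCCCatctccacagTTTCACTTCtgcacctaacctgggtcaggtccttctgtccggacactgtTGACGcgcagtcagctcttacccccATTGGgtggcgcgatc
B2m: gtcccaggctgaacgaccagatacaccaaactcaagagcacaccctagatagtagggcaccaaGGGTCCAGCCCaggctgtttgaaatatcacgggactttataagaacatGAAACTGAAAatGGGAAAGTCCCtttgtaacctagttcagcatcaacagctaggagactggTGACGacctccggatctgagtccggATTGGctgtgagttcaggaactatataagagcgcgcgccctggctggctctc

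The letters of all 4 kinds of element stood in the windows of H2-K1, H2-D1 and B2m, from 250 bases before to 50 after the start, and in 0.0703% of the 27025 promoters of that length in the table. Taken singly, the NF-kB letters were in 13.8% of all promoters and in those of H2-K1, H2-D1, B2m, Tap1 and Psmb9. TGACG was in 21.02% of all promoters and in the same 5 genes, and ATTGG was in 37.9% and, of these genes, in the same 5 and Tapbp. The interferon element with GAAA on both sides was in 3.49% of all promoters and in that of B2m, and the one that begins with GAA was in 7.56% and in those of H2-K1 and H2-D1. The letters were chosen with the promoters of H2-K1 and B2m in view, and a match is a description of the sequence.

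H2-K1 and H2-D1 are set side by side below because they share the NF-kB and interferon letters nearly base for base. Their log2 fold changes were -0.95 and 0.30 in CDDP against Saline. The CDDP hearts and 1 Saline heart stood apart in H2-D1, as described below. With a model term for these hearts the values were -0.67 for H2-K1 and -0.23 for H2-D1. In STING-/-+CDDP against STING-/- the log2 fold changes were alike, at -0.67 and -0.70. The 30 bases that hold the NF-kB and interferon letters were at chr17:34000429-34000458 on the minus strand for H2-K1 and at chr17:35262923-35262952 on the plus strand for H2-D1, in an exon of a longer H2-D1 transcript model, and they differed at 1 position.
H2-K1: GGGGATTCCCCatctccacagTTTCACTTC
H2-D1: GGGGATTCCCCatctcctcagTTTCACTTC

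The authors deposited TPM, in which read numbers are divided by gene length and brought to a common total per heart, so sequencing depth is unknown. Each heart had 19680 to 21024 genes above 0, and 18.8% to 27.6% of TPM came from mitochondrially encoded genes. The 8 cardiomyocyte markers summed to between 27010 and 53570 TPM over the hearts. In CDDP against Saline, Actc1 fell by 3.55 on the log2 scale (limma, adjusted p = 0.00181). Tnnt2 rose with a log2 fold change of 0.56 (adjusted p = 0.0137), and the other 6 did not pass. The atrial markers summed to between 319 and 39176 TPM within the Saline group alone. Sting1 (Tmem173), the targeted gene, was between 6.50 and 12.3 TPM in the Saline hearts and 5.62 and 22.1 TPM in the CDDP hearts, against 2.87 to 5.96 TPM in the STING-/- and 3.37 to 4.67 TPM in the STING-/-+CDDP hearts. It was above 0 in all 6 hearts of knockout mice, and its ranges overlapped between the CDDP and STING-/- hearts.

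The third Saline heart and all 3 CDDP hearts stood apart from the other 8. They shared 20 genes that were at least 2-fold higher, on log2(TPM + 0.1), in each of them than in any other heart, and 0 genes that were lower in the same way. Rps18-ps5, a pseudogene of a ribosomal protein gene, was at 24.03 TPM in the third Saline heart and 37.1, 78.9 and 42.0 TPM in the CDDP hearts, and was listed at 0 in the other 8. Of the 20 genes, 7 were pseudogenes named after 5 parent genes, and all 5 parents lie on chromosome 17 between 24163866 and 33956001. The pseudogene copies made up 47.4% to 95.8% of the summed TPM of Rps18 and its 3 copies in these 4 hearts, and 0.0734% to 0.243% in the other 8. The highest share, 95.8%, was that of the second CDDP heart, and the other 3 were between 47.4% and 49.0%.

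Of the 20 genes, 3 were class I genes of the H2 region. H2-T10 was between 8.89 and 12.5 TPM in the 4 hearts and at most 2.05 TPM elsewhere, and H2-Q1 was between 3.09 and 4.74 TPM against at most 0.17 TPM. Among the 10 genes, H2-D1 was the one whose levels did not overlap, at 1447 to 1951 TPM in the 4 hearts and 446 to 1102 TPM in the other 8, where 0.970% of tested genes were separated in this way. H2-D1 made up 72.6% to 83.1% of the summed TPM of H2-K1 and H2-D1 in the 4 hearts and 49.8% to 61.7% in the others. Of the distinct 50-base stretches of its longest coding transcript, 14.3% also occurred in transcripts of other genes, first of all H2-Q1, and for H2-K1 the share was 8.79%, first of all with H2-D1. For B2m, Psmb8, Psmb9 and Psmb10 it was 0 stretches. Levels of single heavy chain genes are therefore uncertain where reads could go to either. The CDDP group lay entirely within the 4 hearts. What sets them apart and cisplatin can thus be separated in wild-type mice only through the third Saline heart. For the 10 genes, CDDP against Saline and cisplatin averaged over genotypes are given below also with a term for the 4 hearts. In the other comparisons that use CDDP hearts, values with the term are given for H2-D1 and H2-T24 only. The proteasome ratios, the summed heavy chains and the other gene lists are given without such a term.

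**Figure D1:**
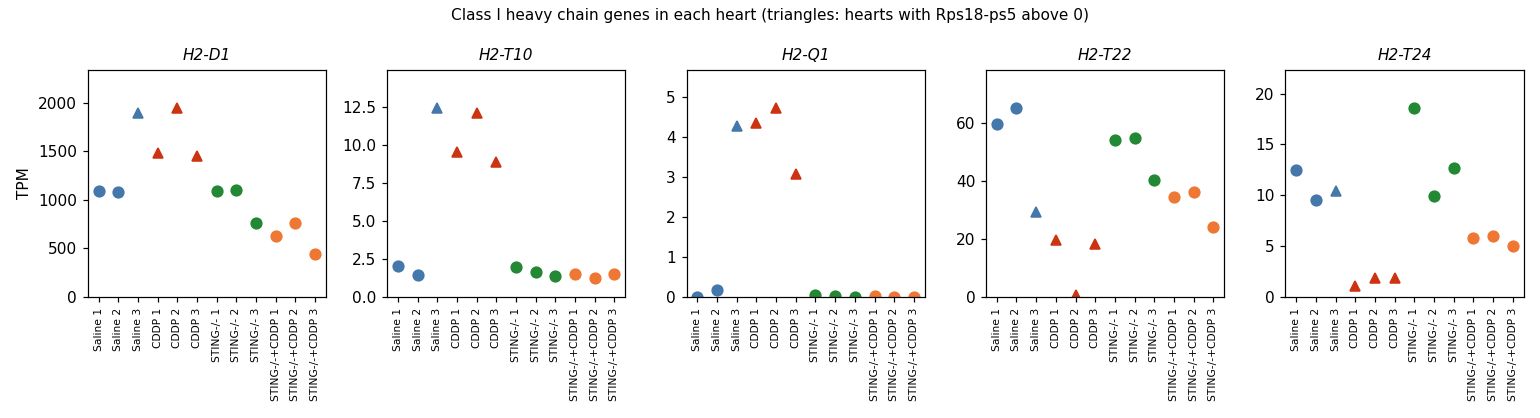
TPM (vertical axes, from 0) of 5 class I heavy chain genes in each of the 12 hearts, coloured by group, with triangles for the 4 hearts that list Rps18-ps5 above 0. H2-D1, H2-T10 and H2-Q1 are high in the triangles, H2-T22 is at 0.81 in the second CDDP heart, and H2-T24 in the third Saline heart, at 10.5, lies between the others of its group.

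In wild-type hearts the class I and immunoproteasome genes were mostly lower after cisplatin. Of the 10 genes, 7 fell in CDDP against Saline and 0 rose, where 10.4% of the 13815 tested genes fell and 18.9% changed in either direction (limma, Benjamini-Hochberg adjusted p under 0.05). The median log2 fold change of the 10 genes was -1.07, against -0.003 for all genes tested. In 7 of the 10 every CDDP heart was below every Saline heart, the third Saline heart included, as held for 17.1% of tested genes. In bulk tissue, fewer cells of a type and less RNA per cell cannot be told apart. The replicates are different mice, and the fold changes below are on the log2(TPM + 1) scale, which makes the change of genes with low TPM smaller.

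**Figure D2:**
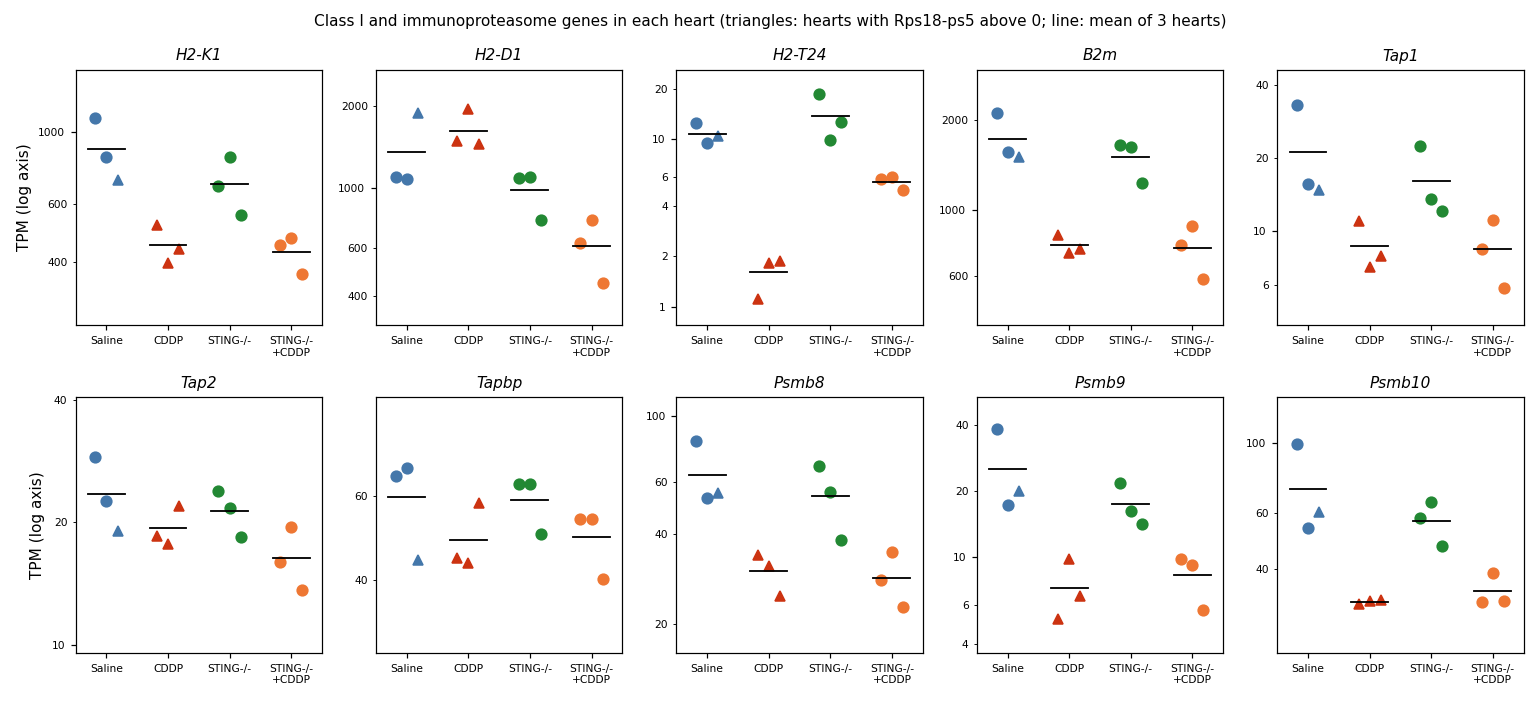
TPM of each of the 10 genes (log axes) in each heart of the 4 groups, with the mean of 3 hearts as a line and triangles for the hearts with Rps18-ps5 above 0. In 7 panels every CDDP heart is below every Saline heart, and in the panel of H2-D1 the 4 triangles are above all circles.

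Among the heavy chain genes, H2-K1 encodes the classical class I chain K. Its level was 1105, 837 and 714 TPM in the Saline hearts, 521, 397 and 438 TPM in the CDDP hearts, 681, 838 and 556 TPM in the STING-/- hearts and 450, 473 and 367 TPM in the STING-/-+CDDP hearts. Cisplatin-treated and untreated hearts did not overlap in either genotype. H2-K1 fell by 0.95 on the log2 scale in CDDP against Saline (standard error 0.19, adjusted p = 0.00748), and the difference in the STING-/- background was -0.67 (standard error 0.19, adjusted p = 0.145), which did not pass.

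H2-D1, which encodes the classical chain D, went another way in wild-type hearts. Saline hearts held 1095, 1077 and 1891 TPM and CDDP hearts 1487, 1951 and 1447 TPM, so the groups overlapped. STING-/- hearts held 1090, 1102 and 760 TPM and STING-/-+CDDP hearts 628, 763 and 446 TPM. The log2 fold change was 0.30 in CDDP against Saline (95% confidence interval -0.26 to 0.87, adjusted p = 0.442) and -0.70 in STING-/-+CDDP against STING-/- (-1.26 to -0.13, adjusted p = 0.256), a comparison of hearts that all list Rps18-ps5 at 0. Against the third Saline heart alone the mean log2 difference of the CDDP hearts was -0.23, and against the first and second it was 0.57.

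H2-T24 encodes a non-classical class I chain of low abundance and showed the largest fold change of the 10 genes. Its level was 12.5, 9.5 and 10.5 TPM in the Saline hearts and 1.11, 1.83 and 1.89 TPM in the CDDP hearts. In STING-/- hearts it was 18.6, 9.89 and 12.7 TPM, and in STING-/-+CDDP hearts 5.82, 6.00 and 4.99 TPM. The 3 CDDP hearts were below all other hearts, and the STING-/-+CDDP hearts lay between them and the hearts without cisplatin. H2-T24 fell by 2.19 in CDDP against Saline (standard error 0.22, adjusted p = 0.000407), a call kept under all 23 alternatives, and by 1.12 in STING-/-+CDDP against STING-/- (standard error 0.22, adjusted p = 0.0391), a call kept under 10 of 24 alternatives with adjusted p from 0.0300 to 0.162.

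The other class I heavy chains of the H2 locus moved unevenly. Of 17 listed, 16 were in the table and 9 were tested, and 4 of the 9 fell in CDDP against Saline while 0 rose. H2-M3, which presents formylated peptides, fell by 1.11 and H2-T23, which encodes Qa-1, by 1.26. H2-Q7, a Qa-2 gene, fell by 1.29. H2-T22 fell by 2.47, with the second CDDP heart at 0.81 TPM and the other CDDP hearts at 19.5 and 18.2 TPM. The Saline hearts held 59.4, 65.2 and 29.3 TPM of H2-T22. In each of these 4 genes the third Saline heart, which stood apart together with the CDDP hearts, was the lowest of its group. Their falls are given without a term for the hearts that stood apart. The median of the 9 was -1.11, while H2-T10 and H2-Q1, the genes with a signal in the 4 hearts that stood apart, were among those that did not pass. Of 5 tested class I-like chains outside the H2 locus, 1 rose and 0 fell, Hfe, which regulates iron uptake and also binds beta-2-microglobulin, with a log2 fold change of 1.04 (adjusted p = 0.0109).

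B2m, the light chain that every class I molecule needs, was the most abundant of the 10 genes in the Saline hearts by mean TPM. Its level was 2097, 1553 and 1504 TPM in the Saline hearts and 823, 719 and 740 TPM in the CDDP hearts. It was 1644, 1623 and 1232 TPM in the STING-/- hearts and 760, 886 and 588 TPM in the STING-/-+CDDP hearts. Treated hearts of both genotypes were below all hearts without cisplatin, and the treated groups overlapped each other. B2m fell by 1.16 in CDDP against Saline (standard error 0.18, adjusted p = 0.00216) and by 1.02 in STING-/-+CDDP against STING-/- (standard error 0.18, adjusted p = 0.0267), the latter under 18 of 24 alternatives with adjusted p from 0.0175 to 0.124.

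The TAP transporter is a dimer of the products of Tap1 and Tap2, and the data gave different values for them. Tap1 levels were 32.9, 15.6 and 14.8 TPM with saline and 10.99, 7.14 and 7.87 TPM with cisplatin, with no overlap. It fell by 1.12 (standard error 0.33, adjusted p = 0.0357). Of the 7 genes called, Tap1 kept its call least often, under 16 of 23 alternatives, and it did not pass without the first Saline heart, which had the highest level of all, the second or the third CDDP heart or the first STING-/-+CDDP heart, nor without the filter or in a fit of only the groups compared. In the STING-/- background Tap1 went from 22.5, 13.6 and 12.1 TPM to 8.47, 11.1 and 5.86 TPM with cisplatin, with a log2 fold change of -0.84 (adjusted p = 0.289).

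Tap2 levels were 28.9, 22.5 and 19.0 TPM with saline and 18.5, 17.7 and 21.9 TPM with cisplatin, so the groups overlapped. Its log2 fold change was -0.25 (95% confidence interval -0.66 to 0.15, adjusted p = 0.372). Tapbp, which encodes tapasin, was between 44.1 and 68.7 TPM in the Saline hearts and between 43.4 and 58.0 TPM in the CDDP hearts, with a log2 fold change of -0.27 (-0.71 to 0.16, adjusted p = 0.367). The intervals of Tap2 and Tapbp leave out a halving of the level, a log2 change of -1. Whether Tap1 differed from Tap2 in its response was not tested.

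Other genes of peptide loading and trimming were mixed, with 2 of 9 higher and 2 lower in CDDP against Saline and a median of 0.05. Erap1, the aminopeptidase that trims peptides in the endoplasmic reticulum, fell by 0.72, and Calr, which encodes the loading chaperone calreticulin, fell by 0.67. The cytosolic peptidase genes Thop1 and Nrd1 rose, with log2 fold changes of 0.52 and 0.52.

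The immunoproteasome genes were all lower after cisplatin in wild-type hearts. Psmb9, which encodes the subunit beta1i, was at 38.1, 17.2 and 19.9 TPM with saline against 5.20, 9.76 and 6.61 TPM with cisplatin, and fell by 1.63 (standard error 0.31, adjusted p = 0.00573). Psmb8, for beta5i, was at 82.5, 53.1 and 55.1 TPM against 34.0, 31.4 and 24.7 TPM, and fell by 1.04 (standard error 0.24, adjusted p = 0.0139). Psmb10, for beta2i, was at 99.6, 54.0 and 60.4 TPM against 30.9, 31.6 and 31.9 TPM, and fell by 1.103 (standard error 0.21, adjusted p = 0.00547). The first Saline heart was the highest in each of these genes, and none of them had overlapping groups. Psmb8 did not pass without that heart, and Psmb9 and Psmb10 passed with any one heart left out.

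In the STING-/- background the same genes were lower after cisplatin in each case without passing the test. Psmb9 went from 21.8, 16.2 and 14.1 TPM to 9.81, 9.21 and 5.70 TPM, with a log2 fold change of -1.0 (95% confidence interval -1.68 to -0.32, adjusted p = 0.169). Psmb8 had a value of -0.88 (-1.41 to -0.34, adjusted p = 0.130) and Psmb10 one of -0.72 (-1.18 to -0.26, adjusted p = 0.147).

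**Figure D3:**
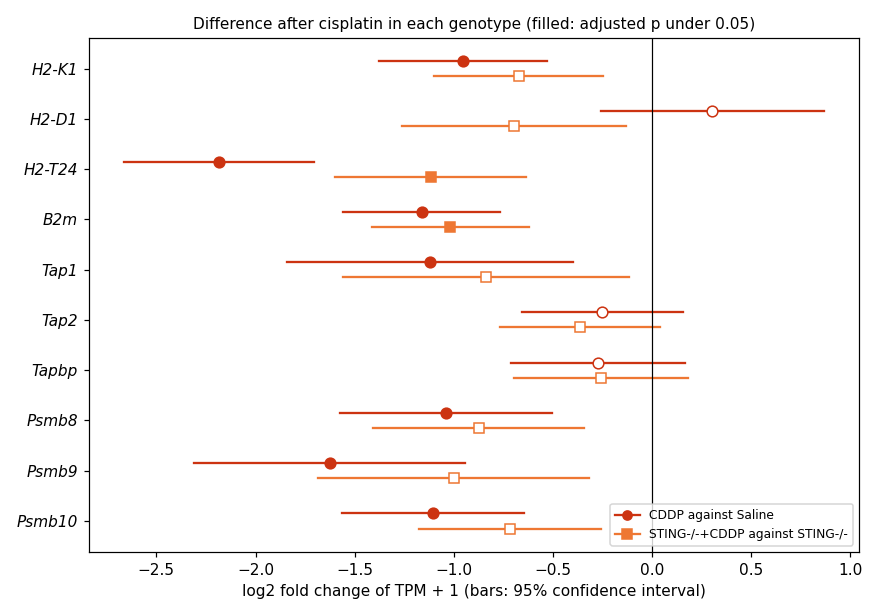
Log2 fold change of TPM + 1 for each gene in CDDP against Saline (circles) and in STING-/-+CDDP against STING-/- (squares), with 95% confidence intervals as bars and filled symbols for adjusted p under 0.05. Of the circles 7 are filled and of the squares 2, and H2-D1 has the only point to the right of 0.

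Across the whole set, 2 of 10 genes fell in STING-/-+CDDP against STING-/-, B2m and H2-T24, where 0.680% of tested genes fell and 0.934% changed in either direction. This comparison holds none of the 4 hearts that stood apart. All 10 genes had negative values, against 64.6% of all tested genes, and 8 had an unadjusted p under 0.05, against 13.5% of tested genes in either direction, and the median was -0.78 against -0.11 for all genes tested. TPM were not scaled between hearts beyond their common sum, and this median of all genes came to 0.01 with scaling by the median of ratios, under which 0 of the 10 passed. For 7 of the 10 genes every STING-/-+CDDP heart was below every STING-/- heart, as held for 16.9% of tested genes.

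The difference between the cisplatin effects of both genotypes, tested as an interaction, passed for 0 of the 10 genes and had an unadjusted p under 0.05 for 2, where 0.00724% of tested genes passed (limma) and 11.7% had such an unadjusted p. The smallest unadjusted p-values were those of H2-T24, with a difference of 1.07 (95% confidence interval 0.39 to 1.75, unadjusted p = 0.00514, adjusted p = 0.321), and H2-D1, with -1.0 (-1.80 to -0.20, unadjusted p = 0.0182, adjusted p = 0.366). With the term for the 4 hearts the differences were 1.03 for H2-T24 and -0.47 for H2-D1. For B2m the difference was 0.14 without the term, with an interval from -0.42 to 0.70. The fall of the set in CDDP against Saline was thus not shown to differ from that in the STING-/- background.

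Averaged over both genotypes, with 6 hearts against 6, the same 7 genes fell with cisplatin, where 12.6% of tested genes fell and 19.8% changed in either direction. B2m fell by 1.09 (standard error 0.13, adjusted p = 0.000435), H2-T24 fell by 1.65 and Psmb9 fell by 1.31. Tap2 had a value of -0.31 (adjusted p = 0.124) and Tapbp one of -0.27 (adjusted p = 0.214). H2-D1 had a value of -0.20 (95% confidence interval -0.60 to 0.20).

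With a term in the model for the 4 hearts that list Rps18-ps5, CDDP is set against the third Saline heart alone. The values then were -0.67 for H2-K1, -0.99 for B2m (adjusted p = 0.0635), -0.73 for Tap1, -0.87 for Psmb8, -1.39 for Psmb9 and -0.92 for Psmb10, all negative, and 1 of the 10 genes, H2-T24 with -2.15, passed (adjusted p = 0.0165), where 1.31% of tested genes fell. Averaged over genotypes with the same term, 6 of the 10 fell and Tap1 did not pass, where 4.28% of tested genes fell. For 7 of the 10 genes all 3 CDDP hearts were below the third Saline heart, as held for 22% of tested genes, and H2-D1, Tap2 and Tapbp were the others. No other Saline heart can serve for this, so the comparison rests on 1 mouse.

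No gene of the set passed for the loss of STING alone. In STING-/- against Saline 0 of 10 genes passed with limma and 0 had an unadjusted p under 0.05, where 0.0724% of tested genes passed and 3.69% had such an unadjusted p, with log2 fold changes between -0.44 and 0.28. In STING-/-+CDDP against CDDP 2 of 10 passed, where 1.22% of tested genes did. H2-D1 fell by 1.43 (standard error 0.26, adjusted p = 0.0303), and H2-T24 rose with a log2 fold change of 1.350 (standard error 0.22, adjusted p = 0.0216).

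Both calls rest on the CDDP hearts, which all list Rps18-ps5, while no STING-/-+CDDP heart does. With the term for the 4 hearts the values were -0.63 for H2-D1 (adjusted p = 0.490) and 1.29 for H2-T24 (adjusted p = 0.393), and neither passed, where 0.0290% of tested genes did. H2-D1 passed under 13 of 22 alternatives and H2-T24 under 17 of 23, with adjusted p from 0.0151 to 0.490 and from 0.0171 to 0.393. The other 8 genes had values between -0.24 and 0.18 with adjusted p of 0.515 or more, and 4 of them took the other sign under another scaling. For B2m the interval was -0.44 to 0.35, and for H2-K1 -0.50 to 0.36. In this fit neither interval reached the fall of the gene in CDDP against Saline. The values and intervals of these 8 genes are without the term for the 4 hearts. They therefore do not separate genotype from what sets those hearts apart. Averaged over both treatments, 0 of 10 genes passed for STING-/- (limma) and 2 had an unadjusted p under 0.05, where 0.181% of tested genes passed and 12% had such an unadjusted p, with adjusted p = 0.0613 for H2-D1 and 0.0586 for H2-T24. The log2 fold change of H2-D1 in this average was -0.93 without and -0.40 with the term for the 4 hearts. That of H2-T24 was 0.82 without and 0.78 with the term.

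The immunoproteasome subunits were next set against their constitutive counterparts within each heart, a ratio that does not depend on the scaling between hearts. Psmb5, Psmb6 and Psmb7, whose products fill the same catalytic places in the standard proteasome, did not pass in CDDP against Saline (0 of 3, range -0.12 to 0.31). Psmb6, the counterpart of Psmb9, stood at 191, 174 and 165 TPM with saline against 216, 223 and 217 TPM with cisplatin.

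The ratio of Psmb9 to Psmb6 was 0.199, 0.0989 and 0.121 with saline against 0.0241, 0.0438 and 0.0304 with cisplatin in wild-type hearts. STING-/- hearts gave ratios of 0.138, 0.0899 and 0.0826 without and 0.0535, 0.0510 and 0.0345 with cisplatin. Every treated heart was below every untreated one. The ratios of Psmb8 to Psmb5 were 0.466 to 0.599 in the Saline and 0.222 to 0.308 in the CDDP hearts, and those of Psmb10 to Psmb7 were 0.418 to 0.631 and 0.214 to 0.232. In the STING-/- background the ratio of Psmb8 to Psmb5 was 0.281 to 0.546 without and 0.204 to 0.300 with cisplatin, which overlapped, and that of Psmb10 to Psmb7 was 0.354 to 0.473 and 0.232 to 0.295.

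With 3 hearts against 3, the exact two-sided permutation test cannot go below p = 0.10, which all 3 ratios reached in CDDP against Saline. Permuting within each genotype, over 6 hearts against 6, the ratio of Psmb9 to Psmb6 was 0.328-fold with cisplatin (exact permutation p = 0.005, the smallest possible, adjusted over 3 ratios p = 0.0075). That of Psmb10 to Psmb7 was 0.535-fold (exact permutation p = 0.005, adjusted p = 0.0075) and that of Psmb8 to Psmb5 0.567-fold (exact permutation p = 0.01, adjusted p = 0.01). Permuting genotype within treatment gave folds of 1.04, 1.01 and 0.832 (exact permutation p = 0.835, 0.97 and 0.175).

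**Figure D4:**
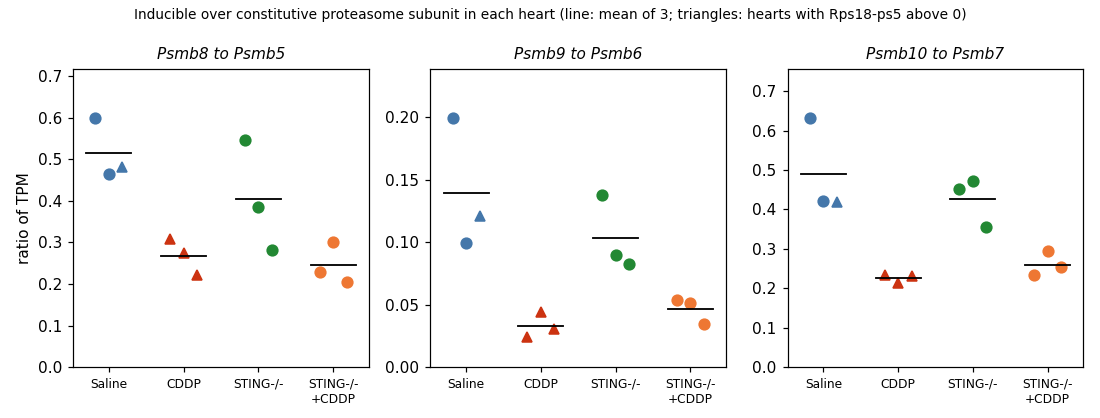
Ratio of the TPM of each inducible subunit gene to that of its constitutive counterpart (vertical axes, from 0) in each heart of the 4 groups, with the mean of 3 hearts as a line and triangles for hearts with Rps18-ps5 above 0. The treated hearts lie below the untreated ones of their genotype in all 3 panels, except for an overlap of Psmb8 to Psmb5 in STING-/-.

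Of the 4 other inducible proteasome genes tested, 1 fell in CDDP against Saline, Psme1, which encodes a subunit of the PA28 activator, by 0.73 (adjusted p = 0.0177). Their median was 0.02. Among 16 transcription factors of the class I genes, 4 rose and 2 fell in CDDP against Saline. Nlrc5, the class I transactivator, went from 10.2, 2.64 and 5.15 TPM in the Saline hearts to 0.68, 2.11 and 0.50 TPM in the CDDP hearts and fell by 1.67 (adjusted p = 0.0222). Nfkb2 and Rela, subunits of NF-kB, rose with log2 fold changes of 0.80 and 0.66. In STING-/-+CDDP against STING-/- 0 of the 16 passed (limma) and 2 had an unadjusted p under 0.05.

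Of 7 tested ligand, receptor and kinase genes of the interferons, Ifngr2, a chain of the receptor for interferon-gamma, fell by 1.29 and Jak2 rose with a log2 fold change of 0.53. Ifnb1 and Ifna4 were listed at 0 in all 12 hearts. The 23 interferon-stimulated genes outside the 10 had a median of -1.17 in CDDP against Saline, with 17 lower and 0 higher, and a median of -1.48 in STING-/-+CDDP against STING-/-, with 12 lower and 0 higher. Irf7 was among them, with falls of 1.88 and 2.14. All 6 tested MHC class II genes fell in CDDP against Saline and 5 of 6 in STING-/-+CDDP against STING-/-, with medians of -2.65 and -2.50.

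**Figure D5:**
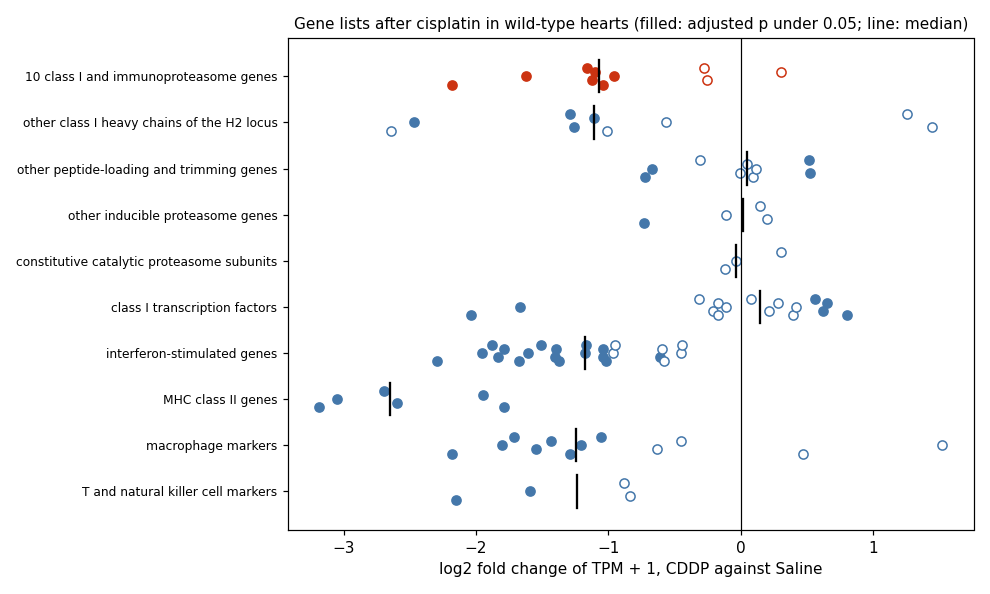
Log2 fold change of TPM + 1 in CDDP against Saline (horizontal axis) for the tested genes of 10 lists, 1 point per gene, filled for adjusted p under 0.05 and with the median of each list as a line. The 10 class I and immunoproteasome genes have a median of -1.07, the interferon-stimulated genes -1.17, the MHC class II genes -2.65 and the constitutive proteasome subunits -0.03.

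Some marker lists of non-muscle cells were lower after cisplatin and others were not, and their part in these results was not tested. Of 12 macrophage markers, 8 fell in CDDP against Saline and 3 in STING-/-+CDDP against STING-/-, and their summed level was 561 to 711 TPM in the Saline, 217 to 393 in the CDDP, 925 to 1457 in the STING-/- and 391 to 816 in the STING-/-+CDDP hearts. Lyz2, the lysozyme gene of macrophages and neutrophils, accounted for most of the gap between genotypes in this sum: it was at 0.95 to 2.45 TPM with saline, 1.01 to 83.5 TPM with cisplatin, 417 to 706 TPM in STING-/- and 176 to 402 TPM in STING-/-+CDDP hearts, and rose in STING-/- against Saline with a log2 fold change of 7.81 (adjusted p = 0.0290). For Lyz2 too, genotype and supplier cannot be told apart. Without Lyz2 the other 11 markers summed to 560 to 708 TPM in the Saline and 216 to 322 TPM in the CDDP hearts. In the STING-/- and STING-/-+CDDP hearts these 11 summed to 508 to 750 TPM and 216 to 414 TPM. Of 13 T and natural killer cell markers 4 passed the filter and 2 of these, Gzma and Nkg7, fell in CDDP against Saline, with summed levels of 8.06 to 29.6 TPM against 1.31 to 3.26 TPM. The B cell marker Ighm fell in both genotypes, and the B cell list summed to 13.5 to 26.6 TPM in the Saline and 0.97 to 1.29 TPM in the CDDP hearts. Of 12 endothelial markers 5 fell in CDDP against Saline and 0 in STING-/-+CDDP against STING-/- (limma; 1 at an unadjusted p under 0.05), with summed levels of 2670 to 4283 TPM against 2334 to 2787 TPM in wild-type hearts. Their median log2 fold change in the STING-/- background was -0.01, with 6 positive and 6 negative values. Of 8 neutrophil markers 5 passed the filter, and all 5 had positive values in CDDP against Saline, with a median of 2.81. None of these 5 passed the test (limma; 4 at an unadjusted p under 0.05), and the list summed to 7.59 to 32.5 TPM with saline against 27.7 to 1120 TPM with cisplatin. Ptprc, carried by leukocytes, was at 3.87 to 6.13 TPM in the Saline and 1.67 to 5.42 TPM in the CDDP hearts and did not pass. In the STING-/- background it was at 3.73 to 6.47 TPM without cisplatin and 0.79 to 2.32 TPM with it (adjusted p = 0.147), and averaged over genotypes it fell by 0.92 with cisplatin (adjusted p = 0.0250). None of these lists had a marker at 0 in every heart, though Cd8a, which marks the T cells that read class I, was at most 0.85 TPM. Of 8 fibroblast markers 4 fell, and all 5 erythroid genes fell in CDDP against Saline.

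The 10 genes differed in how closely they followed each other over the 12 hearts. With each gene scaled to mean 0 and SD 1 on the log2(TPM + 1) scale, Pearson's r with the mean of all 10 was 0.98 for B2m, 0.97 for Psmb8 and between 0.94 and 0.96 for H2-K1, Tap1, Psmb9 and Psmb10. It was 0.88 for Tap2, 0.74 for Tapbp, 0.72 for H2-T24 and 0.30 for H2-D1. These values describe hearts of 4 groups that share the effects of treatment, and each gene is part of the mean.

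Outside the set, the tested genes with the highest r to this mean were Gbp9 at 0.97, Il10ra at 0.97, Cd83 at 0.96, Ifi47 at 0.96 and Prex1 at 0.95. Gbp9 and Ifi47 encode interferon-inducible GTPases, Il10ra a chain of the receptor for interleukin-10 on leukocytes, and Cd83 a surface protein of activated antigen-presenting cells. Gbp9 stood at 16.5, 8.32 and 10.3 TPM with saline against 4.29, 4.37 and 4.18 TPM with cisplatin in wild-type hearts.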

How the data were processed

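RNA-seq of cardiac tissue from 12 mice was analysed, 3 hearts in each of 4 groups taken from the genotype and treatment labels. The authors deposited a table of TPM with 2 decimals, in which the columns of all hearts have the same sum. Per the submitters' processing notes fastp, HISAT, RSEM and the build GRCm38.p5 were used, with no versions given. TPM keep no depth, so intervals and floors from read counts could not be given. Positions came from GENCODE M21, and promoters from RefSeq.

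Values were analysed as log2(TPM + 1). The 13815 genes that reached a TPM of 1 in 3 or more hearts were fitted with limma 3.58.1 in R 4.3.3, with a coefficient per group over all 12 hearts and a trend in eBayes (8 residual degrees of freedom), two-sided, with Benjamini-Hochberg adjustment over all tested genes and a threshold of 0.05. The median standard error between groups was 0.216. In simulated data for CDDP against Saline with 13815 genes, 89% of 200 genes changed by 2 on the log2 scale were recovered with 5.32% false calls. The simulation drew independent noise, without the shared difference of the 4 hearts. It therefore gives no rates for smaller changes, such as most of those reported here, or for hearts that stand apart. Ratios of proteasome subunits were compared with exact permutation tests. Figures used matplotlib in Python.

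All 10 genes are named, Sting1 as the targeted gene, Psmb5, Psmb6 and Psmb7 as counterparts, up to 4 genes with the largest change per list, and the 5 genes most like the mean of the 10. Rps18-ps5, H2-T10, H2-Q1, Ptprc and Cd8a were added with their values known. A gene of the transcription factor list is not reported here. The members and lists were chosen with earlier results of these data known. Of 18 same-numbered pairs of hearts 4 correlated above 0.1, so numbers were not taken as pairs. The settings varied were the pseudocount (0.1), the filter (none, or TPM 5), only the groups compared, scaling by median of ratios, by quantiles or without mitochondrially encoded genes, eBayes without trend, a replicate block, the heavy chains summed, and each heart left out. A term for the 4 hearts that list Rps18-ps5, and a fit without them, were chosen after seeing the data.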

Additional observations from a re-analysis of the deposited data

How the results depend on the processing

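The count of 7 genes that fell in CDDP against Saline stayed within 1.5 times under every alternative except the term for the 4 hearts that list Rps18-ps5, under which it was 1. Under that term H2-D1 was at -0.23, Tap2 at 0.0205 and Tapbp at 0.12 on the log2 scale, signs opposite to those first given, since CDDP is then set against the third Saline heart. The count for cisplatin averaged over genotypes was 6 or 7 throughout.

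The count of 2 in STING-/-+CDDP against CDDP was 0 without the filter, 0 with the term for the 4 hearts and 1 with a replicate block, and between 0 and 2 with each heart left out. It was 0 without the first CDDP heart and without any one STING-/-+CDDP heart, and 1 without the third CDDP or the first STING-/- heart. The count of 2 in STING-/-+CDDP against STING-/- was 1 with a pseudocount of 0.1, 0 without the filter, 0 under the median of ratios, 1 under quantile normalization, 1 with a replicate block, 1 with the term for the 4 hearts, 1 without these hearts and between 0 and 2 with each heart left out. It was 0 without the first STING-/- heart and without the first or the third STING-/-+CDDP heart, and 1 without the third Saline, the third CDDP, the second or the third STING-/- or the second STING-/-+CDDP heart. Without the 4 hearts B2m was the gene that passed (adjusted p = 0.0481), and H2-T24 had an adjusted p of 0.0597. The cause of these changes was not tested. The counts of 0 in STING-/- against Saline, in the interaction and for STING-/- averaged over treatments were 0 under all alternatives run.

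Replicate numbers did not pair the hearts: the correlation of deviations of the 18 same-numbered pairs ran from -0.33 to 0.26, and 1 of 12 hearts correlated best with a heart of its own number. The summed TPM of H2-K1, H2-D1 and 16 other listed heavy chain genes of the H2 locus was also fitted in place of the single genes. Its log2 fold change was -0.22 in CDDP against Saline (adjusted p = 0.409) and -0.46 for cisplatin averaged over genotypes (adjusted p = 0.0246). In STING-/-+CDDP against CDDP the sum was at -0.89 (adjusted p = 0.0419). H2-D1 had a mean of 1628 TPM in the CDDP and 612 TPM in the STING-/-+CDDP hearts, and H2-K1 of 452 and 430 TPM. All CDDP hearts list Rps18-ps5 and no STING-/-+CDDP heart does, and the sum was not tested with a term for this. In that comparison H2-D1 alone was at -1.43 without and -0.63 with the term. The 3 proteasome ratios kept their direction for cisplatin with each heart left out and with the mean of Psmb5, Psmb6 and Psmb7 as counterpart. They also kept their side of the threshold in the permutation test over both genotypes. Within 1 genotype the exact p cannot go below 0.10, so the side could not change there.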
